A study of Mus musculus with 4 samples.

Results

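The genes described here are 34 known targets and regulators of p53, found by their symbols among the 43437 genes listed for 4 RNA-seq libraries of mouse satellite cells, which are muscle stem cells. The list holds Trp53, which encodes p53 itself, its inhibitors Mdm2 and Mdm4, and genes that p53 is known to switch on. All 34 were found, and the 33 with a mean of at least 1 FPKM (fragments per kilobase of transcript, scaled to the mapped fragments of the library) were tested. Cdkn1a and Bax, p53 targets that the study itself took up, are not among them and are given further on.

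The question was how expression differs between satellite cells of HDAC4 KO and control mice. HDAC4 is a histone deacetylase of class IIa, known chiefly for holding transcription down. Satellite cells were sorted by flow cytometry from the muscles of 4-week-old C57BL/6 mice, by the presence of integrin alpha 7 and the absence of the blood, endothelial and progenitor markers CD45, Ter119, CD31 and Sca1, and were kept in growth medium for 24 hours. All mice were HDAC4fl/fl Pax7CE/+ Cre: both Hdac4 alleles can be deleted by a Cre recombinase that tamoxifen activates and that sits in the Pax7 gene, so every mouse had a single working Pax7 allele. The control libraries (control 3 and control 4) came from mice given vehicle and the HDAC4 KO libraries (HDAC4 KO 3 and HDAC4 KO 4) from mice given tamoxifen. The deletion, the activity of the recombinase and tamoxifen itself therefore cannot be told apart in these 4 libraries. Each group held 2 libraries, and the labels do not tell whether separate animals gave them. The p-values thus reflect the spread between these libraries, which may be technical.

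The p53 protein is a transcription factor that is kept low in unstressed cells because Mdm2 marks it for degradation. Damage to DNA and other stress stabilise it, and it then binds pairs of a short half-site in DNA and switches on genes that halt the cell cycle, start cell death, repair DNA or adjust metabolism. Mdm2 is itself a target, so that p53 limits its own level. In muscle stem cells p53 is known to take part in the balance between division, quiescence and differentiation.

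Hdac4 was at 0.93 and 1.07 of the control mean in control 3 and control 4, and at 0.29 and 0.43 in HDAC4 KO 3 and HDAC4 KO 4, a log2 difference of -1.13 ± 0.18 (SE). It did not pass the test over genes of every type (limma, adjusted p = 0.187), and it passed among protein-coding genes alone (adjusted p = 0.0469, with a range of 0.0469 to 0.734 over the alternatives tried). The satellite cell markers Pax7, Myod1, Myf5, Itga7 and Vcam1 were expressed in every library, with Pax7 between 17.1 and 21.4 FPKM. These markers summed to 827 and 1048 FPKM over 5 genes in the controls and to 747 and 735 in HDAC4 KO, mostly through Myod1. Of the 6 satellite cell markers tested, Pax7, Myod1 and Myf5 were lower in both HDAC4 KO libraries, where 17.7% of all genes were. Des, whose level is open and stands outside the sum, was higher in both, at 1.36 times its control mean. Itga7 and Vcam1 overlapped between the groups. Control 3 stood apart by mature myofibre markers, which summed to 1548 FPKM over 6 genes against 81.9 to 175 in the other 3 libraries, mostly through Mylpf, and by blood cell markers, which summed to 31.7 FPKM over 4 genes against 3.50 to 5.19. Smooth muscle and pericyte markers summed to 26.7 and 18.1 FPKM over 4 genes in the controls and to 47.4 and 62.8 in HDAC4 KO, mostly through Acta2, while the defining genes Myh11 and Rgs5 stayed under 1 FPKM in every library. The 3 tested members of that list, Acta2, Tagln and Cspg4, were all higher in each HDAC4 KO library than in either control, and Tagln and Cspg4, whose levels are open and stand outside the sum, were at 2.58 and 2.05 times their control means. Of other markers outside the sums for this reason, Ngfr (glial), Lyz2 (blood) and Cdh5 (endothelial) were at 1.96, 2.55 and 1.89 times their control means, with groups that did not overlap. Of 4 endothelial markers tested 2 were higher in both HDAC4 KO libraries, and Pecam1 and Emcn overlapped between the groups. Of 4 blood cell markers tested 2 were higher in both, and Hbb-bs and Hba-a1 overlapped. Of all genes tested, 30.9% were higher in both. Acta2, Tagln, Cspg4 and Ngfr passed the test among protein-coding genes alone, and none of these markers passed it over genes of every type. Glial markers summed to 4.70 and 2.66 FPKM over 4 genes in the controls and to 11.5 and 8.84 in HDAC4 KO. All 4 tested glial markers were higher in each HDAC4 KO library than in either control. Among them Sox10, at 3.41 times its control mean, also passed among protein-coding genes alone (limma, adjusted p = 0.0469). Fibro-adipogenic progenitor markers summed to between 6.36 and 15.9 FPKM and endothelial markers to between 2.17 and 4.64. The part of these other cells in the differences below was not tested, and in bulk RNA fewer cells of a type cannot be told apart from less RNA per cell.

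Most p53 target genes were higher in each HDAC4 KO library than in either control. This held for 26 of the 33 tested, where it held for 30.9% of all 12111 genes tested. Only Mdm4 was lower in both HDAC4 KO libraries, where 17.7% of all genes were, and 6 members overlapped between the groups. The median log2 difference of the 33 members was 0.35, against 0.04 over all genes tested. Of the 33, 31 lay above 0, where 57.4% of all genes did. At an unadjusted p under 0.05, 15 members were higher and 0 lower, where 10.8% of all genes were higher and 3.81% lower. These counts include Perp, whose mean reached 1 FPKM only through the HDAC4 KO libraries. None of the 33 passed the test after adjustment over all genes, and only 0.0248% of all genes did (limma, threshold 0.05). When protein-coding genes were tested alone, 0.714% of them passed, among them 3 members, all higher in HDAC4 KO: Plk2, Dcxr and Mdm2. Scaling by median ratios lowered the background of genes higher in each HDAC4 KO library from 30.9% to 24.2% and left 25 such members, and quantile normalization gave 24.3% and 24. Under these scalings the share of higher genes among those at an unadjusted p under 0.05 was 58.4% and 60.8%, against 73.9%. The same libraries yielded this list's earlier results, so its direction is described here and not put forward as independent evidence.

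**Figure D1:**
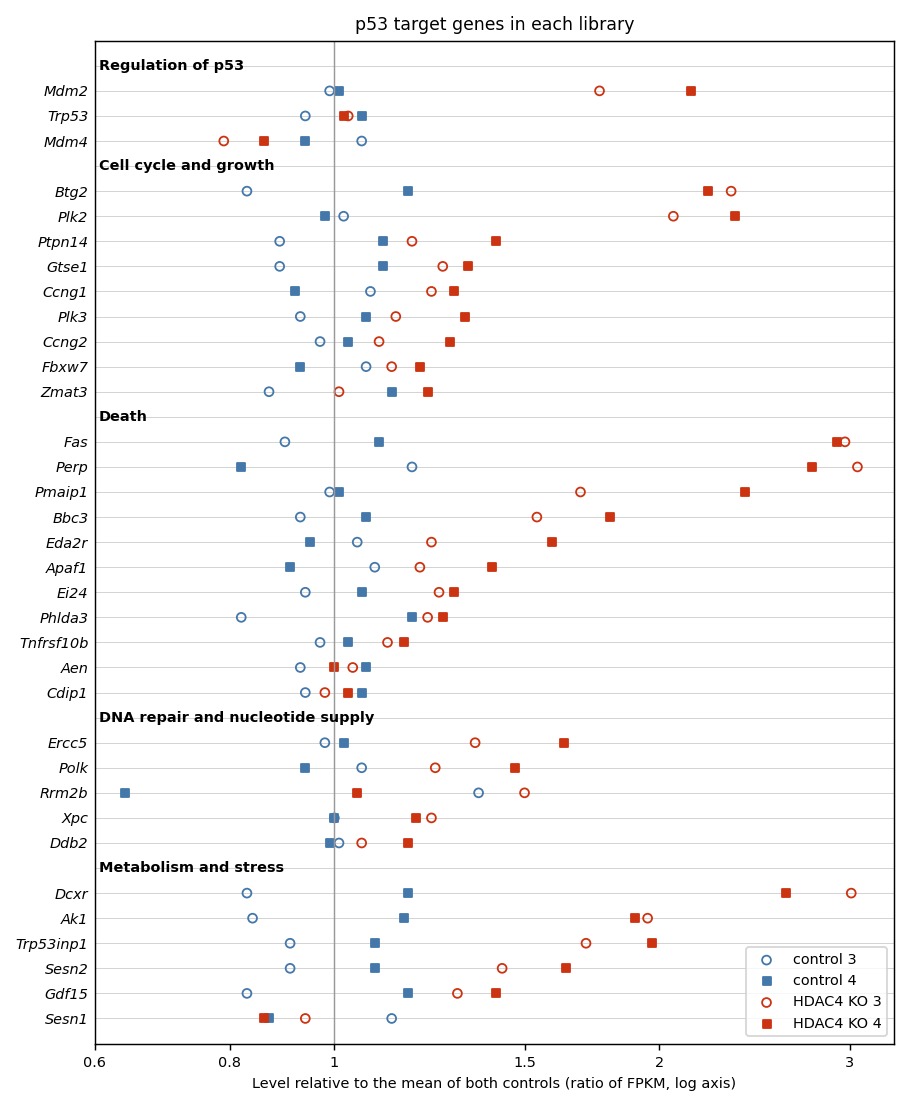
Level of each of the 34 p53 target genes in each library, as a ratio to the mean of both controls on a log axis, grouped by role. Blue points are the controls and red points the HDAC4 KO libraries, with open circles for replicate 3 and filled squares for replicate 4. The red points lie to the right of the blue ones for 27 genes, Fas included, and furthest for Dcxr, Perp and Fas.

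The shift was seen in each library. Taking each member's deviation from its own mean over the 4 libraries on the log2(FPKM + 1) scale, the median over the 33 members was -0.23 and -0.17 in the controls and 0.13 and 0.24 in the HDAC4 KO libraries. Over all genes tested these medians lay between -0.03 and 0.02. HDAC4 KO 4 held the highest value of 22 of the 33 members, and of 25.4% of all genes. Control 3 held the lowest value of 22 members, and of 35% of all genes. Because control 3 carried the myofibre and blood cell RNA, the counts were also taken without it. Then 27 members were higher in both HDAC4 KO libraries than in control 4, where 44.4% of all genes were. Lower in both were 4 members, for which no share of all genes was taken. The median log2 difference was 0.31. Control 4 had the lowest sums of the 4 libraries for fibro-adipogenic, endothelial, smooth muscle and glial markers, and these differences remain in that count.

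Levels in FPKM are given for the 16 members whose decimal point could be placed (8 fully settled, and 8 at their likeliest level, whose probability was at least 0.95). For the other 18 a power of 10 common to all 4 libraries is open, so their values are given relative to the mean of both controls. Among the 16, Trp53 had the highest level, Phlda3 and Plk2 followed, and Perp and Fas had the lowest.

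**Figure D2:**
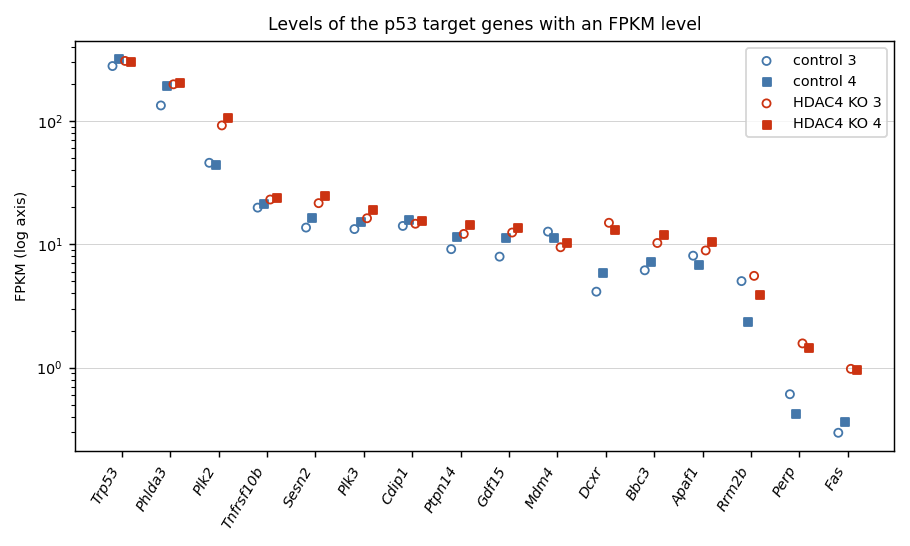
FPKM, on a log axis, of the 16 p53 target genes with a level in FPKM, ordered by their mean over the 4 libraries. Blue points are the controls and red points the HDAC4 KO libraries, with open circles for replicate 3 and filled squares for replicate 4. Trp53 lies between 280 and 317 FPKM in every library, and Fas stays under 1 FPKM.

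Trp53 itself did not separate the groups. It was at 279.6 and 317 FPKM in the controls and at 308 and 303 FPKM in the HDAC4 KO libraries. Both HDAC4 KO values lay between the controls, and the log2 difference was 0.04 with a 95% interval of -0.23 to 0.31, which turned negative under other scalings and without control 3. The RNA level does not give the level or activity of the p53 protein, which was not measured here.

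Mdm2, the ubiquitin ligase that marks p53 for degradation (ENSMUSG00000020184, chromosome 10, 117688888 to 117710758, GRCm38), was at 0.99 and 1.01 of the control mean in the controls and at 1.76 and 2.14 in HDAC4 KO 3 and HDAC4 KO 4. Both HDAC4 KO libraries were far above the closely matching controls. The log2 difference was 0.95 ± 0.13 (limma, adjusted p = 0.14). It passed among protein-coding genes alone (adjusted p = 0.0356), with adjusted p between 0.0352 and 0.536 over the alternatives. Mdm4, a relative of Mdm2 that binds p53 and blocks its activity, went the other way. It was at 12.7 and 11.2 FPKM in the controls and at 9.48 and 10.3 FPKM in HDAC4 KO, a log2 difference of -0.25 with a 95% interval of -0.54 to 0.04. The difference between Mdm2 and Mdm4 was not tested.

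The promoter of Mdm2 is shown because it holds an exact p53 half-site. The 250 bases before the gene's RefSeq start are written 5′ to 3′, with the half-site in capitals. They lie at chr10:117710759-117711008 on the minus strand of GRCm38.p6. The best known p53 sites of Mdm2 lie in an intron, outside these bases.
Mdm2: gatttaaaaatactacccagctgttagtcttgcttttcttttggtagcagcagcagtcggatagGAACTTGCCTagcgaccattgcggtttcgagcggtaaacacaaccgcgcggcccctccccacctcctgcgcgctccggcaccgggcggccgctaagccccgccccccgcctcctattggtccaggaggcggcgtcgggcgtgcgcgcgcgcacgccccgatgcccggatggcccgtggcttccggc

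Among genes of the cell cycle and growth, 8 of 9 were higher in both HDAC4 KO libraries, where 30.9% of all genes tested were. At an unadjusted p under 0.05, 4 of the 9 were higher, where 10.8% of all genes were. Their median log2 difference was 0.34. The clearest was Plk2, a polo-like kinase that p53 induces and that acts on centriole duplication (ENSMUSG00000021701, chromosome 13, 110395044 to 110400844, GRCm38). Its FPKM, at the likeliest level, were 45.9 and 43.9 in the controls and 92.3 and 105 in the HDAC4 KO libraries. The HDAC4 KO mean was 2.20 times the control mean, and neither group's libraries came near the other's. The log2 difference of 1.12 ± 0.10 missed the threshold over all genes (limma, adjusted p = 0.0852) and passed it among protein-coding genes (adjusted p = 0.0219) and among the genes whose mean reached 5 FPKM (adjusted p = 0.0488). Over all alternatives its adjusted p lay between 0.0205 and 0.43. Its relative Plk3 was at 13.3 and 15.3 FPKM in the controls and at 16.3 and 18.9 FPKM in HDAC4 KO. The libraries did not overlap, but the interval of the log2 difference, -0.05 to 0.61 around 0.28, included 0.

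Btg2, a transcriptional cofactor that slows division, was at 0.83 and 1.17 of the control mean in the controls and at 2.33 and 2.22 in HDAC4 KO, a log2 difference of 0.96 ± 0.16 (limma, adjusted p = 0.189). The controls differed from each other by less than either differed from the HDAC4 KO libraries. Gtse1, a microtubule-bound protein of G2 and S phase that also restrains p53, was at 0.89 and 1.11 in the controls and at 1.26 and 1.33 in HDAC4 KO, with a log2 difference of 0.37 ± 0.13 (limma, adjusted p = 0.326). Ccng1, a cyclin that recruits a phosphatase to Mdm2, was at 1.08 and 0.92 in the controls and at 1.23 and 1.29 in HDAC4 KO, with a log2 difference of 0.34 ± 0.11 (limma, adjusted p = 0.316). In both genes the groups did not overlap.

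The other cyclin, Ccng2, was at 0.97 and 1.03 of the control mean in the controls and at 1.10 and 1.28 in HDAC4 KO, a log2 difference of 0.21 with an interval of -0.11 to 0.53. Ptpn14, a phosphatase that restrains growth through Yap, was at 9.15 and 11.4 FPKM in the controls and at 12.2 and 14.5 FPKM in HDAC4 KO. Fbxw7, a ubiquitin ligase subunit that targets cyclin E and Notch, was at 1.07 and 0.93 in the controls and at 1.13 and 1.2 in HDAC4 KO. For these 3 genes the groups did not overlap and the interval of the log2 difference included 0. Zmat3, an RNA-binding zinc finger protein, was at 0.87 and 1.13 in the controls and at 1.01 and 1.22 in HDAC4 KO, so that its groups overlapped.

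Ccng1 and Gtse1 held the closest matches to a full p53 site, which is a pair of half-sites with at most a short spacer. Both pairs have no spacer and 1 mismatch. The 250 bases before the RefSeq start of Ccng1 are shown with both half-sites in capitals, and the stretch lies at chr11:40755287-40755536 on the minus strand of GRCm38.p6.
Ccng1: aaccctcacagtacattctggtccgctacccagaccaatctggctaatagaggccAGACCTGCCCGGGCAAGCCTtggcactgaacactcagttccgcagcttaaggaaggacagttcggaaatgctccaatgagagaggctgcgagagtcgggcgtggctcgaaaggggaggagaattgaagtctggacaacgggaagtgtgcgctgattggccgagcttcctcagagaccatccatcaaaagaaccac

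The death genes tested spanned log2 differences from 0.01 to 0.84. Of these 10, 8 were higher in both HDAC4 KO libraries, where 30.9% of all genes tested were. At an unadjusted p under 0.05, 5 were higher, where 10.8% of all genes were, and the median log2 difference was 0.34. Bbc3, which encodes PUMA, a BH3-only protein that starts mitochondrial cell death, was at 6.16 and 7.15 FPKM in the controls and at 10.3 and 12.0 FPKM in HDAC4 KO. The HDAC4 KO mean was 1.67 times the control mean, and the log2 difference was 0.66 ± 0.13 (limma, adjusted p = 0.215). Pmaip1, which encodes the BH3-only protein NOXA, was at 0.99 and 1.01 of the control mean in the controls and at 1.69 and 2.40 in HDAC4 KO. Its log2 difference was 0.84 ± 0.18 (limma, adjusted p = 0.228), and the HDAC4 KO libraries differed more from each other than the controls did.

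Perp, a membrane protein of desmosomes that p53 induces during cell death, was low, at 0.609 and 0.423 FPKM in the controls and at 1.57 and 1.43 FPKM in HDAC4 KO. Its HDAC4 KO mean was 2.91 times the control mean, and the added FPKM of 1 kept the log2 difference at 0.73 ± 0.19 (limma, adjusted p = 0.259). Both controls were under 1 FPKM, so Perp reached a mean of 1 FPKM only through the HDAC4 KO libraries, where it was high. Its test is therefore no independent support. Perp is counted among the 33 tested, the 26 higher without overlap and the 15 at an unadjusted p under 0.05. Fas, the death receptor of the Fas ligand, had a like ratio at a lower level. It was at 0.296 and 0.361 FPKM in the controls and at 0.978 and 0.959 FPKM in HDAC4 KO, and with a mean under 1 FPKM it was not tested. Eda2r, a receptor for ectodysplasin A2, was at 1.05 and 0.95 of the control mean in the controls and at 1.23 and 1.59 in HDAC4 KO, a log2 difference of 0.45 ± 0.15 (limma, adjusted p = 0.315). Ei24, a membrane protein of the endoplasmic reticulum with a part in autophagy, was at 0.94 and 1.06 in the controls and at 1.25 and 1.29 in HDAC4 KO, a log2 difference of 0.35 ± 0.10 (limma, adjusted p = 0.273).

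Of the other death genes, Apaf1, the core of the apoptosome, was at 8.10 and 6.81 FPKM in the controls and at 8.93 and 10.4 FPKM in HDAC4 KO. Phlda3, an inhibitor of Akt, was at 134 and 193 FPKM in the controls and at 199 and 205 FPKM in HDAC4 KO, with control 4 close to the HDAC4 KO libraries. Tnfrsf10b, the receptor of TRAIL, was at 19.9 and 21.3 FPKM in the controls and at 23.1 and 23.9 FPKM in HDAC4 KO. For these 3 the groups did not overlap, and the intervals of their log2 differences of 0.34, 0.33 and 0.19 included 0. Aen, a nuclease of apoptosis, was at 0.93 and 1.07 of the control mean in the controls and at 1.04 and 1.00 in HDAC4 KO. Cdip1, which acts in tumour necrosis factor signalling to cell death, was at 14.1 and 15.8 FPKM in the controls and at 14.7 and 15.5 FPKM in HDAC4 KO. In both genes the HDAC4 KO values fell between the controls, and the sign of the log2 difference changed under other scalings.

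**Figure D3:**
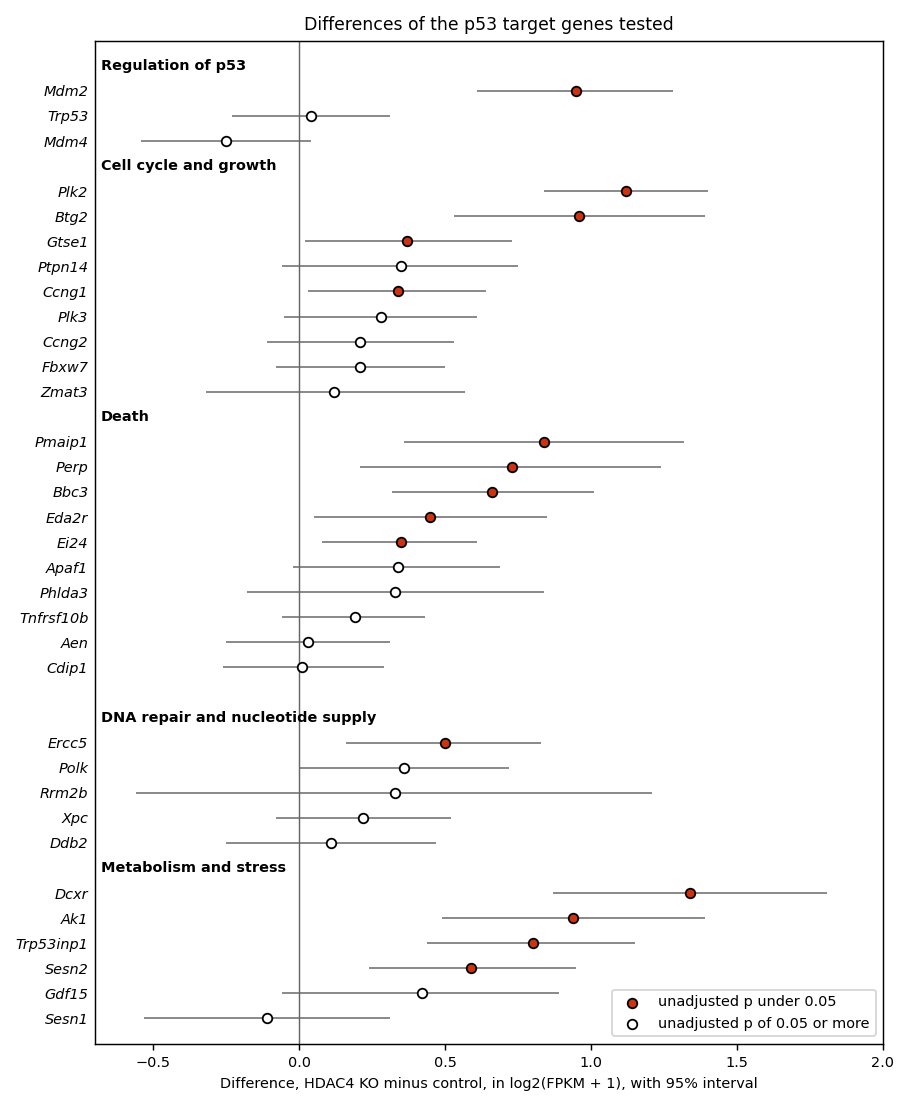
Difference of each of the 33 tested p53 target genes, HDAC4 KO minus control, on the log2(FPKM + 1) scale, grouped by role, with the 95% interval from limma as a line. Filled points are the 15 genes with an unadjusted p under 0.05. Dcxr at 1.34 and Plk2 at 1.12 lie furthest to the right, and Mdm4 at -0.25 and Sesn1 at -0.11 are the points below 0.

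The genes of DNA repair and nucleotide supply had 4 of 5 members higher in both HDAC4 KO libraries, where 30.9% of all genes tested were. Their median log2 difference was 0.33, close to those of the cell cycle and death genes. Of the 5, 1 was higher at an unadjusted p under 0.05, where 10.8% of all genes were. That gene was Ercc5, the endonuclease that cuts on the 3′ side of a lesion in nucleotide excision repair. It was at 0.98 and 1.02 of the control mean in the controls and at 1.35 and 1.63 in HDAC4 KO, a log2 difference of 0.50 ± 0.13 (limma, adjusted p = 0.255). Polk, a polymerase that copies past damaged bases, was at 1.06 and 0.94 in the controls and at 1.24 and 1.47 in HDAC4 KO. Xpc and Ddb2 recognise lesions in the same repair pathway as Ercc5. Xpc was at 1.00 in both controls and at 1.23 and 1.19 in HDAC4 KO. Ddb2 was at 1.01 and 0.99 in the controls and at 1.06 and 1.17 in HDAC4 KO. Rrm2b, the p53-induced subunit of ribonucleotide reductase, had the largest standard error of the 33 tested members, 0.33, and was at 5.04 and 2.36 FPKM in the controls and at 5.55 and 3.87 FPKM in HDAC4 KO, and its groups overlapped.

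The metabolism and stress genes had the highest median log2 difference of the 5 role groups, 0.69. At an unadjusted p under 0.05, 4 of 6 were higher, where 10.8% of all genes were. Dcxr, an enzyme that reduces L-xylulose and other dicarbonyls (ENSMUSG00000039450, chromosome 11, 120725399 to 120727281, GRCm38), had the largest log2 difference of all members tested. Its FPKM, at the likeliest level, were 4.13 and 5.83 in the controls and 15.0 and 13.1 in the HDAC4 KO libraries. The HDAC4 KO mean was 2.81 times the control mean, with no HDAC4 KO library near a control. The log2 difference was 1.34 ± 0.18 (limma, adjusted p = 0.14), and it passed among protein-coding genes alone (adjusted p = 0.0321, with a range of 0.0312 to 0.734 over the alternatives).

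Ak1, an adenylate kinase abundant in muscle, was at 0.84 and 1.16 of the control mean in the controls and at 1.95 and 1.90 in HDAC4 KO, a log2 difference of 0.94 ± 0.17 (limma, adjusted p = 0.189). Trp53inp1, a nuclear stress protein that promotes p53 activity and autophagy, was at 0.91 and 1.09 in the controls and at 1.71 and 1.97 in HDAC4 KO, a log2 difference of 0.80 ± 0.13 (limma, adjusted p = 0.189). In both genes each HDAC4 KO library was at least 1.71 times the control mean. Gdf15, a secreted stress factor, was at 7.95 and 11.3 FPKM in the controls and at 12.5 and 13.6 FPKM in HDAC4 KO, with an interval of the log2 difference from -0.06 to 0.89.

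The sestrins, which restrain the growth kinase mTORC1 when amino acids are scarce, are a pair of relatives among the members. Sesn2 was at 13.7 and 16.4 FPKM in the controls and at 21.6 and 24.8 FPKM in HDAC4 KO, a log2 difference of 0.59 ± 0.13 (limma, adjusted p = 0.237). Sesn1 was at 1.13 and 0.87 of the control mean in the controls and at 0.94 and 0.86 in HDAC4 KO, with overlapping groups and a log2 difference of -0.11 (interval -0.53 to 0.31), which was 0.03 without control 3. The interval of Sesn2, 0.24 to 0.95, overlapped that of Sesn1, and the difference between them was not tested.

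Other genes of the pathway were counted from 2 further lists. Of 17 further p53 targets, 15 were tested, 14 lay above 0 and 10 were higher in both HDAC4 KO libraries, with a median log2 difference of 0.32. Over all genes tested, 57.4% lay above 0 and 30.9% were higher in both. None passed the test over all genes. At an unadjusted p under 0.05, where 10.8% of all genes were higher, 8 were, among them Cdkn1a, Sfn, Rps27l, Thbs1, Ckap2, Lif and Ddit4. Cdkn1a, which encodes the CDK inhibitor p21 and which the study picked from these libraries, was at 271 and 351 FPKM in the controls and at 441 and 516 FPKM in HDAC4 KO, a log2 difference of 0.63 ± 0.17 (limma, adjusted p = 0.259). The log2 differences were 0.84 for Sfn, 0.69 for Lif, 0.63 for Ddit4, 0.43 for Thbs1, 0.41 for Rps27l and 0.32 for Ckap2. Bax, a killer protein of the mitochondrion, had overlapping groups and a log2 difference of 0.21 ± 0.16.

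Genes that act on p53 or together with it were counted too, whether or not p53 also switches them on. Of 20 regulators and partners of p53, such as the damage kinases Atm and Chek2, 18 were tested. Their median log2 difference was 0.07, 4 were higher and 1 lower in both HDAC4 KO libraries, and 13 overlapped. Of all genes tested, 30.9% were higher and 17.7% lower in both. None was higher at an unadjusted p under 0.05, where 10.8% of all genes were. Cdkn2a, whose product p19Arf inhibits Mdm2, was lower at that p, at 0.84 and 1.16 of the control mean in the controls and at 0.66 and 0.70 in HDAC4 KO, a log2 difference of -0.53 ± 0.18 (limma, adjusted p = 0.315). Trp63 and Trp73, the relatives of Trp53, stayed under 1 FPKM in every library. The difference between the lists was not tested.

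**Figure D4:**
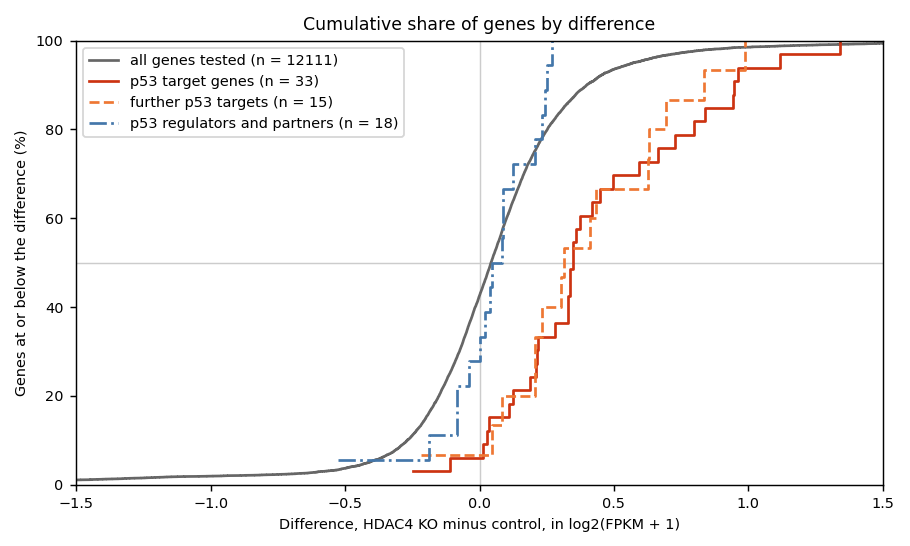
Cumulative share of genes, in percent, by their difference, HDAC4 KO minus control, on the log2(FPKM + 1) scale, for all 12111 genes tested, the 33 p53 target genes, 15 further p53 targets and 18 regulators and partners of p53. The curves cross 50% at the medians of 0.04, 0.35, 0.32 and 0.07, and a few genes outside -1.5 to 1.5 are not shown.

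Immediate early genes, which respond to stress such as tissue dissociation, were counted beside the p53 targets. Of 17, 15 were tested, 13 lay above 0, where 57.4% of all genes did, and the median log2 difference was 0.31. In both HDAC4 KO libraries 9 were higher and 2 lower, where 30.9% and 17.7% of all genes were. At an unadjusted p under 0.05, 3 were higher and 2 lower, where 10.8% and 3.81% of all genes were. Ier3, a stress gene that protects from cell death, had the largest difference of the higher ones, at 13.6 and 15.2 FPKM in the controls and at 31.4 and 25.2 FPKM in HDAC4 KO. Egr1 and Egr3 were the lower ones, at -0.46 and -0.52. Summed over 11 genes, the list was at 337 and 388 FPKM in the controls and at 411 and 390 FPKM in HDAC4 KO. Their part in the differences of the p53 targets was not tested.

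Promoters of 26 of the 34 members were matched in RefSeq (GRCm38.p6, 250 bases before to 50 after each start), and Ddb2, Perp, Pmaip1, Rrm2b, Tnfrsf10b, Trp53inp1, Xpc and Zmat3 were not given there. An exact p53 half-site, which is 10 bases long and reads alike on both strands, was found in 8 of the 26, where 9.55% of all 27025 genes with a promoter hold it. A gene was counted if any of its promoters matched. The 26 members have 40 promoters and the 27025 genes have 32851, so a member had more promoters on average in which to match. A pair of half-sites with at most 1 mismatch and a spacer of up to 13 bases was found in 3 of the 26, Ccng1, Gtse1 and Polk, where 1.24% of all genes hold it. Beside those of Mdm2 and Ccng1, the sites found are shown in full, with the half-sites in capitals and any spacer in lower case. The pairs of Gtse1 and Polk have 1 mismatch and those of Aen and Sesn1 have 2, and for Ei24 and Trp53 only the exact half-site is given. They lie at chr15:85859945-85859964 (plus strand), chr13:96519398-96519418 (minus), chr7:78895937-78895963 (plus), chr10:41887253-41887275 (plus), chr9:36797335-36797344 (minus) and chr11:69580284-69580293 (plus).
Gtse1: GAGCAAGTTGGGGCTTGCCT
Polk: GAACTAGCCTcAAACTTATTC
Aen: GGGCTTGTCCgggcaagGAGCTTCCGC
Sesn1: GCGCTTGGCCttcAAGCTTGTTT
Ei24: GGGCATGCCC
Trp53: GGACTTGCCC

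The differences were also set beside the half-sites. The 8 members with an exact half-site had a median log2 difference of 0.34 and 5 of them were higher in both HDAC4 KO libraries, as were 37.0% of all tested genes with a half-site. The 17 tested members whose promoter held none had a median of 0.42 and 15 were higher, as were 31.9% of all tested genes without. Plk2, Bbc3, Dcxr, Btg2 and Ak1 are among the latter, and Trp53, Aen and Sesn1, whose groups overlapped, among the former. Over all genes tested, the medians were 0.06 for 664 genes with a half-site and 0.04 for 7742 without. A match is only a description of these letters, and p53 sites outside the windows were not searched.

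Exons of 6 members overlap those of a gene on the opposite strand: Cdip1 with Hmox2, Ddb2 with Acp2, Ei24 with Gm26787, Plk3 with Tctex1d4, Ptpn14 with Gm26574 and Rrm2b with Gm49085. The library kit keeps the strand, but the sources used here do not say that strand was used in counting, so the values of these 6 may hold reads of both genes.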

How the data were processed

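Satellite cell RNA was sequenced single-end from stranded mRNA libraries, 2 control and 2 HDAC4 KO. Per the submitters' processing notes, CASAVA 1.8.2, cutadapt, TopHat, Cufflinks and Cuffdiff were used with GRCm38. For every library the authors deposited FPKM values of the genes with their confidence bounds, and a Cuffdiff table with an FPKM per group. The other columns of that table (log2 fold change, test score, p-value and q-value, as deposited by the authors) were not used. Depth cannot be read from FPKM, so no counting interval or floor is given.

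Most deposited FPKM values of at least 1 lacked their decimal point. It was put back where this placed the value at the middle of its bounds (within 4e-05 of the upper one), where the pair of libraries in a group returned the group FPKM of the authors (tolerance 0.02 on the log2 scale) and where the widths of the bounds were alike between libraries. For 152 tested genes, Rrm2b and Trp53inp1 among them, the widths decided only together with the smallest difference between the groups, which leans against a difference. Of 43437 genes, 25326 were kept and 17712 were listed at 0 in every library. For 8190 of the 12111 tested genes a power of 10 common to all libraries was open and set to its likeliest value, which was right for 81.78% of 3841 genes whose level was hidden, and for 94.92% of 767 at a probability of at least 0.95. An unsettled level leaves ratios as they are and enters a log2 difference by the pseudocount alone.

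Genes whose mean reached 1 FPKM entered a limma test (version 3.58.1, R 4.3.3, empirical Bayes, mean-dependent prior spread, two-sided, no block) on log2(FPKM + 1), HDAC4 KO minus control. Benjamini-Hochberg adjustment ran over all genes tested. A fold on this scale understates the change of low genes. Ratios of means were taken on FPKM. An exact permutation test of 2 against 2 libraries has a smallest p of 0.333 and was not used. Restoration and test were checked on simulated data. Gene names came from the files, promoter sequences from RefSeq (GRCm38.p6) and exon overlaps from GENCODE M21. All members were named, with error and p for those at an unadjusted p under 0.05. The values of 1 further target are not reported here. The members and lists were chosen with earlier results of these data known. Alternatives were another pseudocount, filter, scaling, prior spread, gene type, a replicate block, each library left out, and, chosen after seeing the data, other levels and a crossed block.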

Additional observations from a re-analysis of the deposited data

How the results depend on the processing

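The median log2 difference of the p53 targets stayed above 0 under every alternative tried, at 0.29 to 0.41. Wherever all 33 members were tested, 28 or more of the 33 lay above 0. In the fit described above, 57.4% of all genes did. With 1 library left out it lay between 0.30 and 0.41. The number of members past the adjusted threshold was 0 except among protein-coding genes alone (3, with a pseudocount of 1 or, chosen after seeing the data, of 0.1 FPKM) and where the mean had to reach 5 FPKM (1). The number of higher members at an unadjusted p under 0.05 was 15 and lay between 8 and 13 with 1 library left out, the 8 being without HDAC4 KO 4. Of all genes, 10.8% were higher at that p with all libraries. With 1 left out 4.98% to 9.65% were, the share without HDAC4 KO 4 being 6.1%. Each of these fits leaves 1 library in a group, so its p-values rest on the spread of the other group. With 1 library left out, 27 to 30 members were higher and 1 to 4 lower without overlap. Of all genes, 42.7% to 46.1% were then higher without overlap, against 30.9% with all libraries. With all libraries 17.7% of all genes were lower, and with 1 left out this share was not taken. With settled levels only, an alternative chosen after seeing the data, 7 members were left. Of these, 2 were higher at an unadjusted p under 0.05, where 11.9% of all genes with settled levels were. Without overlap 6 were higher, where 33.6% of those genes were, and 0 were lower. With median-ratio scaling 1 member, Mdm4, was lower at an unadjusted p under 0.05. Hdac4 passed among protein-coding genes alone, at -1.13, and at -1.44 with a pseudocount of 0.1 FPKM.

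The sign of 6 members near 0 changed. With median-ratio scaling Trp53 was at -0.02, Aen at -0.03 and Cdip1 at -0.04, and with quantile normalization at -0.05, -0.01 and -0.03. Without control 3, Trp53 was at -0.05, Sesn1 at 0.03, Zmat3 at -0.01, Aen at -0.07 and Cdip1 at -0.06. With 1 library left out, Trp53 ranged from -0.05 to 0.13, Sesn1 from -0.25 to 0.03, Zmat3 from -0.01 to 0.26, Aen from -0.07 to 0.13, Rrm2b from -0.10 to 0.75 and Cdip1 from -0.06 to 0.09. Rrm2b was at -0.10 without control 4, Aen at -0.003 without HDAC4 KO 3 and Cdip1 at -0.02 without HDAC4 KO 4. The cause was not tested. Genes whose points were settled within each library alone include no tested member, so that alternative was not run.

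With the replicate number as a block, 16 members had an unadjusted p under 0.05 and were higher, where 7.94% of all genes were. Of the members 0 passed the adjusted threshold, and their median stayed at 0.35. The labels give no pairing, and the deviations of same-numbered libraries were weakly and negatively correlated across genes (-0.113). With the numbers crossed, 0 members passed and 16 were higher at an unadjusted p under 0.05, where 11.1% of all genes were. With 2 libraries a group and no counts, depth limits cannot be given.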
